A study of Rattus norvegicus with 8 samples.

Results

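The genes of heme synthesis and of electron supply to cytochromes P450 were followed in rat liver after dietary exposure to potassium perfluorooctanesulfonate (PFOS), a fluorinated surfactant. The 9 genes were chosen by name, with earlier results of these data known. They were Alas1, Alad, Uros, Urod, Cpox and Fech of heme synthesis, Hmox1 of heme breakdown, and Por and Cyb5a of electron transfer. Every probe whose accession led through RefSeq to one of these symbols was taken. Each gene had 1 probe, and all 9 were among the 15204 genes and features tested.

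PFOS rats were adult male Sprague-Dawley rats given a diet with 50 mg/kg PFOS for 28 days (n = 4). Control rats were of the same strain, sex and age class and ate the control diet over the same 28 days (n = 4). Whole liver RNA of each rat was labelled with Cy5 and hybridised to its own Agilent rat expression array, together with a Cy3-labelled universal rat reference RNA that was the same on all 8 arrays. The dyes were never swapped, so dye bias and liver signal cannot be told apart in the level of a ratio. Values are log2 ratios of Cy5 over Cy3 after background correction and loess normalization, and a change is the PFOS mean minus the control mean.

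Heme is built in a short chain of enzymes that begins and ends in mitochondria. ALA synthase 1, the product of Alas1, joins glycine to succinyl-CoA and is the rate-limiting step in liver, where much of the heme goes into cytochromes P450. Microsomal P450 enzymes also need electrons from NADPH, which reach them through P450 oxidoreductase (Por) and, for some reactions, through cytochrome b5 (Cyb5a).

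Median Cy5 brightness per array was 116 to 160 units over a local background of 71 to 75 units, and in Cy5 50.4% to 59.1% of probes exceeded background clearly by the scanner software's test. All arrays were on 1 slide, with 2 arrays of each group in each of its 2 rows. Row 1 held PFOS 1, PFOS 2, control 1 and control 2, with Cy5 medians of 154.5 to 160 units, and row 2 held the others, with 116 to 138 units. All 7 hepatocyte markers (among them Alb, Ttr and Apoa2) were detected and none was called, though 1 was called without control 3. Their mean log2 ratio was 7.97 to 8.16 in PFOS livers and 7.99 to 8.32 in control livers. All 9 genes were well above background in both channels on 8 of 8 arrays, and no spot on the arrays was saturated. The number of arrays limits the precision.

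The entry enzyme of heme synthesis and both electron carriers were higher in PFOS livers. Alas1, Por and Cyb5a passed the test (limma, Benjamini-Hochberg adjusted p below 0.05 over all 15204 genes and features), 0 of the 9 were lower, and 6 were not called. Over all genes and features 1.83% were called higher and 2.14% lower, or 3.97% in either direction. Because the 9 genes were chosen with earlier results known, these shares are given beside them without a test. The median change of the 9 genes was 0.21 on the log2 scale, beside -0.01 over all genes and features. The same 3 genes were the ones whose groups did not overlap, with PFOS livers higher, as for 5.91% of all genes and features, and 0 of the 9 had non-overlapping groups with PFOS livers lower, as for 6.89%. In the Cy5 channel alone the same 3 genes were called higher and 0 lower, where 4.78% of all genes and features were called, 2.38% higher and 2.39% lower. None of the 9 was called in the Cy3 channel, where 0.0723% were called.

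**Figure D1:**
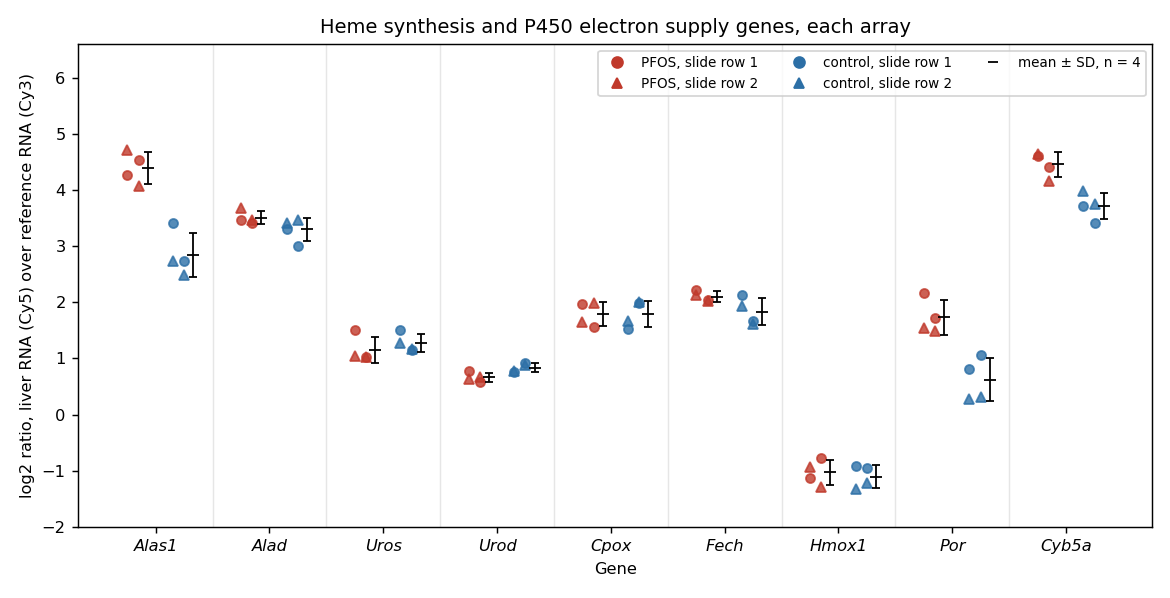
Log2 ratio of Cy5 over Cy3 for each of the 9 genes (x axis, y axis in log2 units), with PFOS arrays left of control arrays, circles for slide row 1, triangles for row 2, and bars for each group's mean ± SD. Points of Alas1, Por and Cyb5a do not overlap between the groups, while those of the other 6 genes do.

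Alas1 had log2 ratios of 4.27, 4.53, 4.71 and 4.07 in PFOS livers, against 3.41, 2.73, 2.73 and 2.49 in control livers. Every PFOS liver lay above every control liver, and the highest control liver, control 1, lay well above the other controls. The group means were 4.40 ± 0.28 in PFOS livers and 2.84 ± 0.40 in control livers (SD, n = 4 each), a change of 1.56 ± 0.21 (SE, 95% interval 1.09 to 2.02), or 2.94-fold (limma, adjusted p = 0.00455). This change exceeded that of 99.7% of the genes and features tested. It was 1.33 between the arrays of slide row 1 and 1.78 between those of row 2, and with 2 arrays a group it was called in neither row alone. With each array left out in turn it ran between 1.44 and 1.75 and passed the test each time.

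The liver channel alone gave a smaller Alas1 change, and the reference channel at this spot was lower on PFOS arrays. In Cy5 the change was 1.23 ± 0.17 (SE; limma, adjusted p = 0.00409). In Cy3, which carried the same RNA on every array, the log2 signal was 13.14, 13.10, 13.27 and 13.30 on PFOS arrays and 13.34, 13.44, 13.48 and 13.48 on control arrays. The groups did not overlap, as for 1.05% of all genes and features that were lower on PFOS arrays, although the change of -0.24 was not called (limma, adjusted p = 0.711). The raw Cy5 brightness was 39280 to 71482 units in PFOS livers and 14877 to 38641 units in control livers.

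The RefSeq promoter table of the GRCr8 assembly gives 250 bases before and 50 after the start of a gene, and holds 7 of the 9 genes, Cpox and Hmox1 not among them. The Alas1 window, chr8:115768593-115768892 on the minus strand, is printed because Alas1 changed most. Capitals mark the palindromic core bound by the respiratory factor NRF1.
Alas1: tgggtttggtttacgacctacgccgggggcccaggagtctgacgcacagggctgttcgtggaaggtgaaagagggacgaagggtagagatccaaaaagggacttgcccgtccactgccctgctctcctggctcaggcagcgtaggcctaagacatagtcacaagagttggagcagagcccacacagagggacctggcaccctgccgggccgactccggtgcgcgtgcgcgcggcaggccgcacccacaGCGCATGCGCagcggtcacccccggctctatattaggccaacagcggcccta
This core begins at position -2 relative to the start and contains the shorter NRF1 element GCATGCG on both strands. The core occurred in 0.852% of the 33469 promoters of the table and the shorter element in 3.33%. The Alas1 window is 64.0% G and C, beside a median of 51.7% over all promoters. Among the 7 windows only that of Alas1 held the core. Such a match describes letters and not binding.

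None of the 5 later enzymes was called. Alad, which condenses aminolevulinic acid to porphobilinogen, had log2 ratios of 3.47, 3.41, 3.68 and 3.46 in PFOS livers and 3.31, 3.01, 3.42 and 3.47 in control livers. The groups overlapped, with a change of 0.21 ± 0.12 (SE, 95% interval -0.05 to 0.47). Uros, which closes the uroporphyrinogen ring, had 1.50, 1.03, 1.04 and 1.02 in PFOS livers and 1.50, 1.15, 1.28 and 1.17 in control livers. Its change was -0.13 ± 0.13 (SE, 95% interval -0.42 to 0.17), and PFOS 1 lay apart from the other PFOS livers. Without PFOS 1 the change was -0.24, which was not called either (limma, adjusted p = 0.252). The Uros probe was dim, at 134.5 to 214 units of Cy5 brightness in PFOS livers and 148.5 to 215 in control livers.

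Urod, which decarboxylates uroporphyrinogen, had log2 ratios of 0.77, 0.59, 0.64 and 0.66 in PFOS livers and 0.76, 0.92, 0.78 and 0.88 in control livers. PFOS 1 alone overlapped the controls, and the change of -0.17 ± 0.08 (SE, 95% interval -0.34 to 0.00) was not called (limma, adjusted p = 0.261). In Cy5 alone the Urod groups did not overlap, with PFOS livers lower by 0.21 (95% interval of the change -0.36 to -0.05), which was not called either (limma, adjusted p = 0.129). In that channel 6.86% of all genes and features had non-overlapping groups with PFOS livers lower and 6.28% with PFOS livers higher.

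Cpox, which makes protoporphyrinogen, had 1.97, 1.55, 1.65 and 1.98 in PFOS livers and 1.52, 1.98, 1.67 and 2.0 in control livers. Its change of -0.01 ± 0.14 (SE, 95% interval -0.33 to 0.32) was not called (limma, adjusted p = 0.987). A true difference inside that interval is not excluded, and the interval is not the smallest change that could be called. The Cpox probe was dim, at 199 to 352.5 units of Cy5 brightness in PFOS livers and 244 to 373 in control livers. Fech, which inserts iron to complete heme, had 2.22, 2.03, 2.12 and 2.03 in PFOS livers and 2.12, 1.66, 1.94 and 1.62 in control livers. The Fech change of 0.27 ± 0.12 (SE, 95% interval -0.01 to 0.54) was not called (limma, adjusted p = 0.262).

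The difference between Alas1 and each later enzyme was tested directly, as the Alas1 ratio minus the later enzyme's ratio on each array. The Alas1 change was larger by 1.35 ± 0.26 (SE) than that of Alad, by 1.68 ± 0.24 than that of Uros and by 1.73 ± 0.28 than that of Urod. It was larger by 1.56 ± 0.39 than that of Cpox and by 1.29 ± 0.18 than that of Fech. In each of the 5 comparisons all 4 PFOS arrays lay above all 4 control arrays. The exact two-sided permutation p was 0.0286, the smallest that 4 against 4 arrays allow. It was the same after Benjamini-Hochberg adjustment over the 5. All 5 comparisons use the same Alas1 ratios, whose groups already did not overlap, while none of the later enzymes was called. Separation was thus largely set beforehand. The permutation p adds no support of its own, and the comparisons are not 5 independent tests. In Cy5 alone the 5 differences were 0.96 to 1.44, and the adjusted exact permutation p was 0.0357 for 4 of them and 0.0571 for Cpox.

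**Figure D2:**
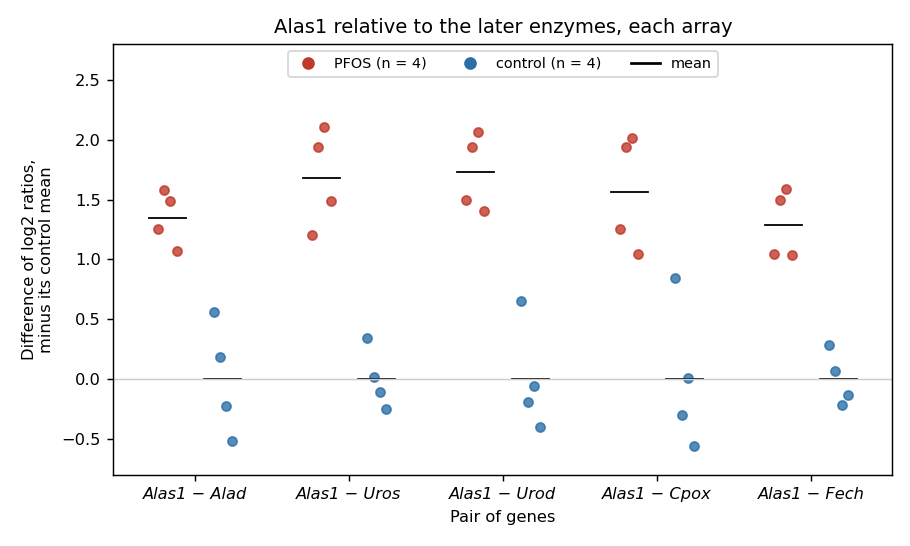
Log2 ratio of Alas1 minus that of each later enzyme on every array, centred on the control mean (y axis, log2 units), with PFOS arrays left of control arrays and a line at the mean. The highest control array, for Cpox, was at 0.85, and the lowest PFOS array, for Fech, at 1.04.

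Beyond the 6 synthesis enzymes above, 13 further genes of heme synthesis and mitochondrial porphyrin transport were listed, and 12 were tested. Of these, 0 were higher, 2 lower and 10 not called (median change -0.14). Among all genes and features 1.83% were called higher, 2.14% were called lower, and 6.89% had non-overlapping groups with PFOS livers lower. Ppox, which oxidises protoporphyrinogen in the step between Cpox and Fech, had log2 ratios of 1.15, 0.86, 1.25 and 1.14 in PFOS livers against 1.87, 2.07, 1.57 and 1.73 in control livers. The Ppox groups did not overlap, and the change was -0.71 ± 0.12 (SE; limma, adjusted p = 0.0157). Abcb10, a mitochondrial transporter needed for heme synthesis in red cell precursors of the mouse, had 0.34, 0.32, 0.44 and 0.39 in PFOS livers against 0.95, 0.78, 1.06 and 1.05 in control livers. Its groups were likewise apart, with a change of -0.59 ± 0.09 (SE; limma, adjusted p = 0.0068). Tmem14c, a porphyrin carrier, changed by 0.33 (limma, adjusted p = 0.121) and Slc25a38, a glycine carrier, by -0.24 (adjusted p = 0.136), and neither was called. Without control 1 the Ppox change was -0.69 and missed the threshold (limma, adjusted p = 0.0509), and within slide rows 1 and 2 it was -0.96 and -0.46. With the slide column as a block the Abcb10 change was -0.59 and missed it too (adjusted p = 0.0511).

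Hmox1, the inducible heme oxygenase that opens heme to biliverdin, had log2 ratios of -1.14, -0.77, -0.93 and -1.29 in PFOS livers and -0.91, -0.95, -1.33 and -1.23 in control livers. The groups overlapped over nearly their whole range, and the change was 0.08 ± 0.14 (SE, 95% interval -0.24 to 0.39). Of 11 further genes of heme handling and breakdown, 9 were tested. Among these, 1 was higher, 0 were lower and 8 were not called (median change 0.03). For comparison, 1.83% of all genes and features were called higher, and 5.91% had non-overlapping groups with PFOS livers higher. Blvrb, a biliverdin reductase that also acts on flavins, had 1.94, 2.19, 2.23 and 2.09 in PFOS livers against 1.29, 1.44, 1.39 and 1.33 in control livers. All PFOS livers lay above the controls, with a change of 0.75 ± 0.09 (SE; limma, adjusted p = 0.0031). Hmox2, the constitutive heme oxygenase, changed by 0.38 (limma, adjusted p = 0.112) and was not called.

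Both electron carriers were higher in PFOS livers. Por had log2 ratios of 2.17, 1.72, 1.54 and 1.49 in PFOS livers, against 0.81, 1.06, 0.27 and 0.32 in control livers. All PFOS livers lay above all controls, and in both groups the arrays of slide row 1 were the higher ones. The means were 1.73 ± 0.31 in PFOS livers and 0.62 ± 0.38 in control livers (SD, n = 4 each), a change of 1.11 ± 0.21 (SE, 95% interval 0.65 to 1.58), or 2.17-fold (limma, adjusted p = 0.0205). The change was 1.01 within row 1 and 1.22 within row 2, and 1.21 ± 0.22 (SE) in Cy5 alone (adjusted p = 0.0156). Por missed the threshold without PFOS 2, control 3 or control 4, with changes of 1.12, 1.00 and 1.02 and adjusted p of 0.0535, 0.0531 and 0.0537.

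Cyb5a had log2 ratios of 4.61, 4.41, 4.65 and 4.16 in PFOS livers, against 3.72, 3.41, 3.98 and 3.75 in control livers. The groups did not overlap, and the closest arrays were PFOS 4 and control 3. The means were 4.45 ± 0.22 in PFOS livers and 3.71 ± 0.23 in control livers (SD, n = 4 each), a change of 0.74 ± 0.15 (SE, 95% interval 0.41 to 1.07), or 1.67-fold (limma, adjusted p = 0.0259). In Cy5 alone it was 0.57 ± 0.12 (SE; adjusted p = 0.0323), and within slide rows 1 and 2 the ratio changed by 0.94 and 0.54. The Cyb5a call was the least stable of the 3: it was lost without PFOS 1, PFOS 2, PFOS 3, control 1, control 2 or control 4, with changes between 0.64 and 0.76 and adjusted p between 0.0575 and 0.0691.

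**Figure D3:**
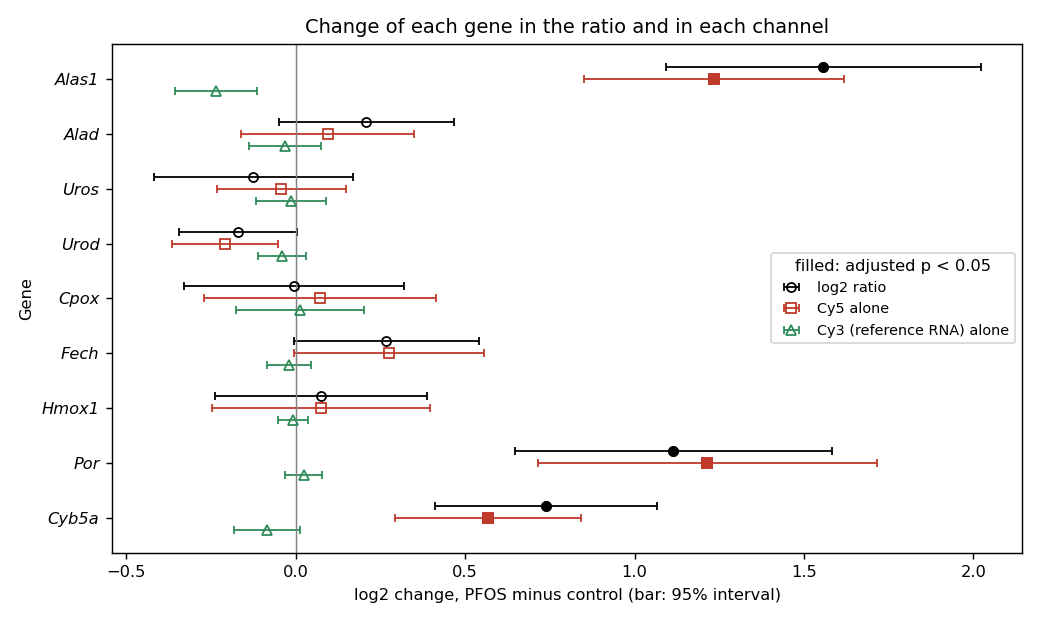
Change of each gene (x axis, log2, PFOS minus control) in the ratio, in Cy5 alone and in the Cy3 reference channel alone, with bars for the 95% interval and filled symbols for an adjusted p below 0.05. Alas1, Por and Cyb5a are filled in the ratio and in Cy5, and the Cy3 interval of Alas1 lies below 0.

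The Por window is printed because Por, like Alas1, was called higher. It is chr12:26635760-26636059 on the minus strand of GRCr8. Its capitals mark the hexamer AGGTCA, a nuclear receptor element, on its reverse strand at position -217, and the GC box GGGCGG at -189 and -95.
Por: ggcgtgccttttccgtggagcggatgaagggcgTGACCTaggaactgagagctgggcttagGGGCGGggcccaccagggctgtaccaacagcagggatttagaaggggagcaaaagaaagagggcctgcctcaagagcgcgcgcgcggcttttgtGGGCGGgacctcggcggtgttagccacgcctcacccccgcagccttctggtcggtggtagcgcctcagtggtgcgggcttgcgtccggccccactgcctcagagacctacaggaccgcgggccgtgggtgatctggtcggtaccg
The hexamer AGGTCA was found in 16.2% of all promoters and GGGCGG in 33.1%, both strands counted. The Por window is 66.3% G and C. It held none of the other motifs searched: AGTTCA (14.5% of promoters), the E-box CACGTG (6.42%), the antioxidant response element TGACNNNGC (12.1%), CCAAT (37.5%), TATAAA (14.2%) and both NRF1 elements.

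The Cyb5a window, chr18:80487759-80488058 on the plus strand of GRCr8, is printed for the same reason. Its capitals mark AGTTCA, a variant of the nuclear receptor hexamer, on the reverse strand at -168, CCAAT at -186 and -103 and on the reverse strand at -150, and GGGCGG at -9.
Cyb5a: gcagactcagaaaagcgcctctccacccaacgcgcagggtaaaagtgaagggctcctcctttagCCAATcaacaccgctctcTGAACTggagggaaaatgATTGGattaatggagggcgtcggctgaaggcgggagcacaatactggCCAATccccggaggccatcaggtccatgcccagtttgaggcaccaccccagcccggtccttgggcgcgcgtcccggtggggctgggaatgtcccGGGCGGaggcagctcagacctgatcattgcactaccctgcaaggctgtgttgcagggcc
The Cyb5a window is 61.0% G and C. None of the letter strings searched was common to the windows of Alas1, Por and Cyb5a. Of the 4 other windows in the table, Alad held CACGTG at -223 and 12, GGGCGG at 6 positions and CCAAT at -131. Urod held CACGTG at -75 and GGGCGG at 3 positions, Fech held GGGCGG alone, at 3 positions, and Uros held none of the strings.

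Other parts of the electron supply were tested as well, beside 3.97% called over all genes and features. Here 9 of 9 listed genes were not called, with a median change of 0.11. They were cytochrome b5 reductases, adrenodoxin and its reductase, the progesterone receptor membrane components and others. Pgrmc2, a heme-binding membrane protein, changed by 0.28 (limma, adjusted p = 0.0728), Fdx1, the mitochondrial ferredoxin, by 0.29, Fdxr, its reductase, by -0.18 and Cyb5b, the outer mitochondrial membrane cytochrome b5, by -0.27. Enzymes other than P450s that take electrons from Por or cytochrome b5 gave 0 calls among 11 tested, with a median change of 0.08. Sc5d, a sterol desaturase, changed by -0.39 (adjusted p = 0.0744), Fads1, a fatty acid desaturase, by -0.47 and Scd, the stearoyl-CoA desaturase, by -1.05 (adjusted p = 0.169).

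Cytochromes P450 of families 1 to 4, which carry heme and draw on these carriers, were measured with 43 tested genes of 51 on the array. Of these, 8 were higher, 0 were lower and 35 were not called, with a median change of 0.16 and a range of -2.14 to 3.62. Over all genes and features 1.83% were called higher and 2.14% lower. The calls fell on 4 of 24 genes of family 2, 3 of 5 of family 3, 1 of 13 of family 4 and 0 of 1 of family 1. In Cy5 alone 11 were higher and 3 lower, beside 2.38% and 2.39% of all genes and features. The higher counts in both include Cyp2b21 of family 2, which passed the filter through its PFOS arrays alone, so its call adds no support. Without PFOS 3 the ratio gave 4 calls in place of 8. It gave 4 with processed signals and 3 with a normexp offset of 0. Closely related P450 genes share sequence, and how far a probe also binds a relative was not tested.

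Cyp2b2, a phenobarbital-inducible P450, had the largest of these changes, 3.62 ± 0.09 (SE; limma, adjusted p = 2.0e-07). Its Cy3 signal was also higher on PFOS arrays, by 1.90 (limma, adjusted p = 0.0047). The reference RNA was the same on every array, and the cause of this Cy3 rise was not tested. A rise in Cy3 makes a ratio change smaller than the Cy5 change, which was 5.74 for Cyp2b2. The ratio change was 2.18 with the mean of the gene's tested probes, and it was called in all 24 other settings. Cyp2j4, an arachidonic acid epoxygenase, rose by 1.52 ± 0.15 (SE; adjusted p = 0.0014), Cyp2c22 by 1.06 ± 0.16 (adjusted p = 0.00874) and Cyp3a2, a steroid and drug hydroxylase, by 0.99 ± 0.18 (adjusted p = 0.0191). Cyp4a1, a fatty acid omega-hydroxylase, rose by 0.72 ± 0.13 (SE; adjusted p = 0.0191), while its Cy3 signal rose by 1.64 and its Cy5 signal by 2.54. With the scanner software's processed signals the ratio change was 0.27 for Cyp3a2 (adjusted p = 0.225) and -0.00479 for Cyp4a1 (adjusted p = 0.987). With a normexp offset of 0 it was 0.45 for Cyp3a2 (adjusted p = 0.111), 0.37 for Cyp4a1 (adjusted p = 0.207) and 0.75 for Cyp2c22 (adjusted p = 0.268). Cyp3a2 also missed the threshold without PFOS 1 (0.91, adjusted p = 0.0539) or PFOS 3 (0.94, adjusted p = 0.0568), and Cyp4a1 without PFOS 3 (0.69, adjusted p = 0.0568) or control 2 (0.71, adjusted p = 0.0538). Cyp2b21 was well above background on 4 of 4 PFOS arrays and on 0 of 4 control arrays, so no fold is given.

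**Figure D4:**
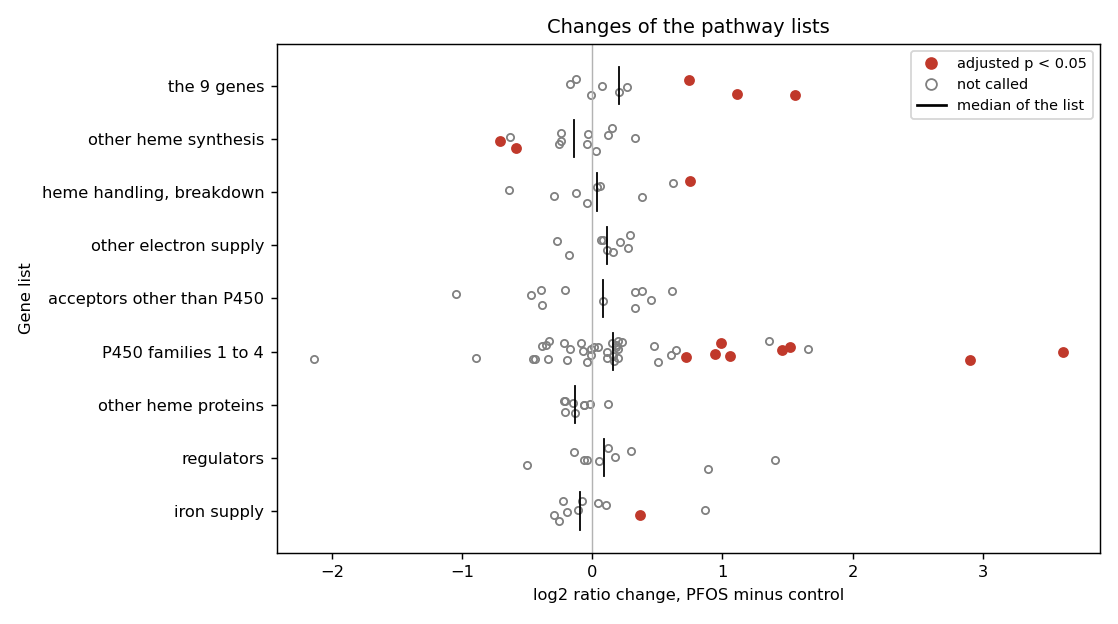
Change of every tested gene (x axis, log2 ratio, PFOS minus control) in the 9 genes and in each related list, with filled points for an adjusted p below 0.05 and a line at each list's median. The point of Cyp2b21 is its fitted value, from a probe not well above background on control arrays. Filled points lie right of 0 for Alas1, Por, Cyb5a, Blvrb, Aco1 and 8 P450 genes, and left of 0 for Ppox and Abcb10.

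Other heme proteins and the regulators of heme synthesis were read beside the 3.97% called over all genes and features. Heme proteins other than P450s gave 0 calls among 9 tested (median change -0.13), with Ptgs1 at -0.21, Cygb at -0.21, Tdo2 at 0.12 and Cycs at -0.15. Regulators of heme synthesis gave 0 calls among 10 tested (median change 0.09). Nrf1, the respiratory factor named above, changed by 0.29 (limma, adjusted p = 0.0858), Nr1i3, the constitutive androstane receptor, by 1.40 ± 0.46 (SE; adjusted p = 0.132) and Nr1d1, a heme-binding nuclear receptor, by 0.89 ± 0.49 (SE; adjusted p = 0.341). None of these 3 was called.

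Iron supply was tested with 10 genes, of which 1 was higher and 0 lower (median change -0.10). The shares over all genes and features were 1.83% called higher, 2.14% called lower and 5.91% with PFOS livers higher without overlap. Aco1, which is also iron regulatory protein 1, had log2 ratios of 2.49, 2.30, 2.46 and 2.46 in PFOS livers against 2.11, 2.12, 1.95 and 2.06 in control livers. Its groups did not overlap, and the change was 0.37 ± 0.08 (SE; limma, adjusted p = 0.0368), but 14 of 24 other settings lost the call, with changes of 0.28 to 0.46 over all 24. Slc11a2, an iron importer, changed by -0.30, Tfr2, a transferrin receptor of liver, by -0.19 and Ftl1, the ferritin light chain, by -0.25, none of them called.

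For each called gene the tested genes most alike over the 8 arrays were found by the root mean square difference of their log2 ratios, each taken minus its control mean. Nearest to Alas1 were Cyp2j4 (difference 0.29), Acaa1b, a peroxisomal thiolase (0.30), and Obp1f, an odorant-binding protein (0.39). Nearest to Por were Cyp2c22 (0.20), Cd36l1 (0.21) and Decr2, a peroxisomal dienoyl-CoA reductase (0.24). Nearest to Cyb5a were Gnat2, a transducin subunit (0.11), Ppcs, an enzyme of coenzyme A synthesis (0.15), and Chrdl1 (0.16), whose probe was well above background on 0 of 4 control arrays. These genes were selected for likeness, and their changes carry no further test.

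Markers of other cells in whole liver were read beside these values, and in bulk tissue fewer cells of a type and less RNA per cell cannot be told apart. None of the markers below was called with all 8 arrays. Without control 4, 2 erythroid markers and 1 stellate marker were called, and without PFOS 2, 1 cholangiocyte marker was. Erythroid markers, whose cells also make heme, had 7 of 11 tested, with changes of -0.63 to -0.07 (median -0.54) and a mean log2 ratio of 3.20 to 3.74 in PFOS livers and 3.25 to 4.52 in control livers. Alas2, the erythroid ALA synthase, changed by -0.63 (limma, adjusted p = 0.363). Macrophage markers, whose cells break down heme, had 8 tested, with changes of -0.78 to -0.01 (median -0.36) and a mean log2 ratio of 2.76 to 3.93 in PFOS livers and 3.09 to 4.10 in control livers. Endothelial (3 tested, median -0.48), stellate (6, median -0.20), cholangiocyte (4, median 0.10) and lymphocyte markers (2, median -0.23) gave 0 calls with all 8 arrays. Their part in the changes of Alas1, Por, Cyb5a, Ppox and Abcb10 was not tested.

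**Figure D5:**
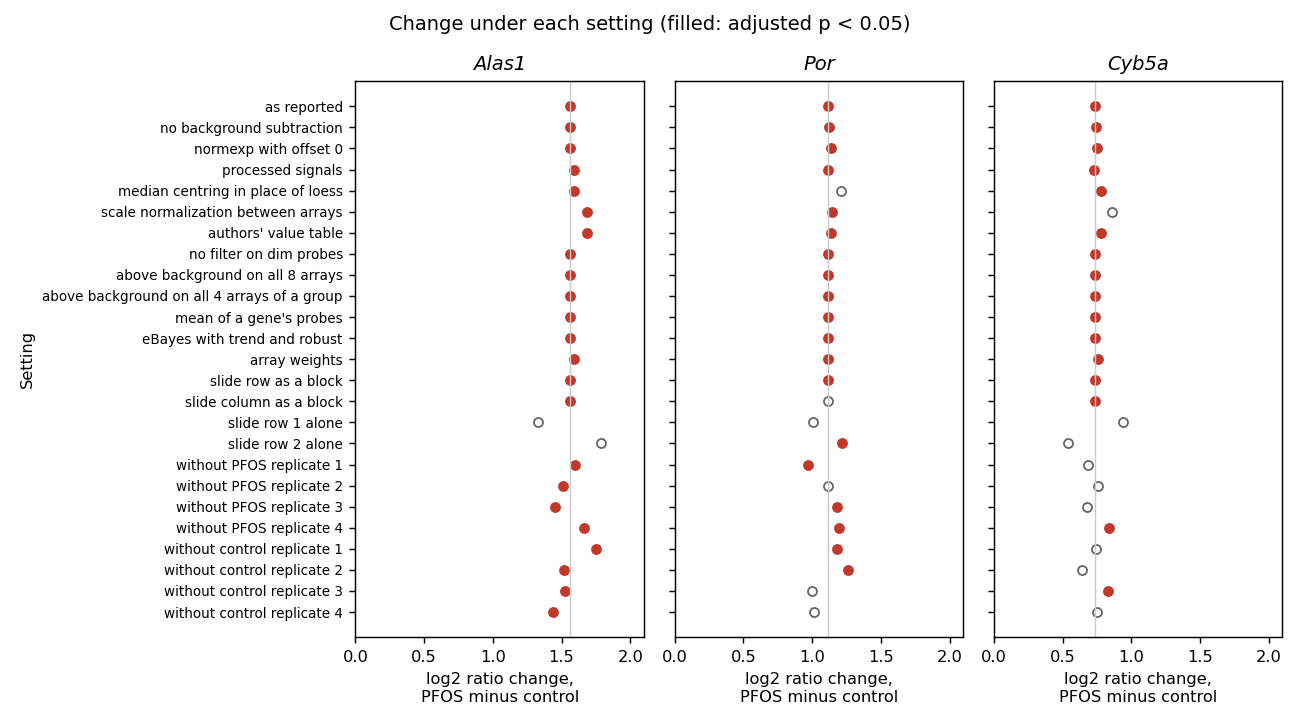
Log2 ratio change of Alas1, Por and Cyb5a (x axis, PFOS minus control) under each processing setting (y axis), filled where the adjusted p is below 0.05. Alas1 was called in 22 of 24 other settings, Por in 18 and Cyb5a in 15, and the changes of all 3 stayed above 0.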

How the data were processed

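The authors deposited spot intensity values (median signal and local background in each channel), read by Agilent Feature Extraction 10.7.3.1 per the submitters' processing notes. Their deposited value table is on a log2 scale. How it was made is not given in the sources used here. The table correlated with loess log2 ratios without background subtraction at 0.995 to 0.997, with array medians of -0.061 to -0.048 and an unknown centring. It served as an alternative.

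Background was corrected by normexp (offset 50) on all 62976 spots. Arrays were loess-normalized with the 4259 control spots at weight 0, and 733 to 991 outlier spots per array were left out. Of 30367 probes, 16952 passed the software's background test in Cy5 on 4 or more of the 8 arrays, and a gene's brightest probe stood for it (15204 genes and features, 9620 with a symbol). Groups were compared with limma 3.58.1 (R 4.3.3), two-sided, with Benjamini-Hochberg adjustment over all genes and features. Single channels were quantile normalized.

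Groups came from the labels. Replicate numbers follow accession order and pair nothing. That each group's samples are separate rats is taken from their separate animal IDs. Named genes were all 9, up to 4 per related list and 6 P450s with the smallest p, and 3 nearest in pattern to each called gene. The genes and lists were chosen with earlier results of these data known. The fit across all genes was tested on simulated data. The alternatives were other background, normalization, filter, probe, test and slide settings and each array left out.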

Additional observations from a re-analysis of the deposited data

Results flagged for a closer look

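A sample was singled out where its gap to the nearest other sample of its group exceeded Dixon's critical share of the group's range. Of 166 groups tested 9 met this, or 5.42%, and chance alone gives about 5%. No explanation was weighed for any of them.

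Among the 9 genes of heme synthesis and electron supply, Uros met it: PFOS 1 had a log2 ratio of 1.50, with 1.02 to 1.04 in the other PFOS livers. Without PFOS 1 the Uros change was -0.24 in place of -0.13, and it was not called in either case. Acaa1b, the thiolase near Alas1 in pattern, was 5.48 in PFOS 4 and 5.91 to 5.97 in the other PFOS livers. Cyp2b21 was 1.98 in PFOS 4 and 3.25 to 3.39 in the other PFOS livers, and Aco1 was 2.30 in PFOS 2 and 2.46 to 2.49 in the others. Cygb was 3.42 in PFOS 1 and 2.86 to 2.93 in the others.

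On the control side Sc5d was 3.25 in control 1, with 3.02 to 3.04 in the other controls. Serpina1, a hepatocyte marker, was 8.02 in control 3 and 8.24 to 8.26 in the others. Csf1r, a macrophage marker, was 1.64 in control 4 and 2.06 to 2.12 in the others. Gnat2, near Cyb5a in pattern, was -0.0518 in control 2 and 0.47 to 0.51 in the other controls.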

How the results depend on the processing

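The changes of Alas1, Por and Cyb5a kept their direction in all 24 other ratio settings and all 14 other Cy5 settings. Alas1 was called in 22 and 12 of these, Por in 18 and 13, and Cyb5a in 15 and 5. Of the 9 genes, 0 were called in slide row 1 alone and 1 in row 2 alone, in the ratio and in Cy5, and 1 to 3 in the ratio with an array left out. Over all genes, ratio calls numbered 239 with median centring, 268 with the slide column as a block, 93 in row 1 alone, 32 in row 2 alone and 350 to 519 with an array left out, beside 604. In Cy5 they numbered 407 with 75th percentile scaling, 112 and 27 in the rows alone and 405 to 668 with an array left out, beside 726. Each row alone has 4 arrays; the cause of the other differences was not tested. Por lost its call with median centring (1.21, adjusted p = 0.0539) and slide column as a block (adjusted p = 0.101), and Cyb5a with scaling between arrays (0.86, adjusted p = 0.0565). A sign changed 40 times, in 15 results, 1 of them called: Cyp4a1, at -0.00479 with processed signals (0.64 to 0.82 with an array left out). Cpox, not called, was 0.0159 without background subtraction, 0.00711 with offset 0, 0.0791 with processed signals, 0.0415 with median centring, 0.0496 with scaling, 0.0217 in the authors' table, 0.00927 in row 1 and -0.0983 to 0.0725 with an array left out. Hmox1 was -0.0251 in row 1 and -0.0105 to 0.160 with an array left out. In Cy5 Uros was 0.00743 with 75th percentile scaling and -0.0927 to 0.00406 with an array left out, Cpox -0.0566 to 0.181, and Hmox1 -0.0137 to 0.170, and -0.0216 in row 1. With processed signals Cd5l was 0.166 and Krt7 -0.00146. With scaling Krt7 was -0.0740, Alb 0.170, Serpina1 0.0678 and Spp1 -0.0643. In the authors' table Tdo2 was -0.0213. In row 1 Krt7 was -0.0713, and in row 2 Spp1 was -0.00151, Nr1d1 -0.202, Pecam1 0.0180 and Krt19 -0.262. With an array left out Krt7 was -0.0466 to 0.102, Pecam1 -0.130 to 0.00398 and Krt19 -0.112 to 0.363. With scaling between arrays Cyp3a2 (1.33, adjusted p = 0.146) and Cyp4a1 (0.97, adjusted p = 0.194) were not called. P450 calls numbered 3 with a normexp offset of 0, 4 with processed signals and 5 with scaling between arrays, beside 8. Uros and Cpox were the dimmest of the 9, and how far signal over background limits them was not tested. No paired analysis was possible because replicate numbers were given in accession order and pair no rats.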
